A study of Rattus norvegicus with 29 samples.

Results

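The comparison described here is that of gentamicin with control after 24 h in primary rat renal proximal tubule epithelial cells. Its members are the 6 libraries whose labels give gentamicin or control at the later of the study's times, 3 libraries in each group, of 29 libraries in all. The study, a project on how compound exposure alters renal metabolism, sequenced RNA from control cultures and from cultures given gentamicin, acetaminophen, trichloroethylene or TCDD, sampled at 6 h and 24 h. Every group had 3 libraries apart from the 6 h control, which had 2. The gentamicin group is labelled only with the drug and the time, and the control group only as control. The sources used here do not give the dose, the vehicle, the strain, sex or age of the rats, or how many animals the cells came from. Nothing in the labels says that replicates came from separate animals or separate cultures, so each p below measures only the spread between these libraries, which may be technical.

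Proximal tubule cells line the first stretch of the nephron and take back most of what the glomerulus filters. Gentamicin, an aminoglycoside antibiotic that makes bacterial ribosomes misread messages, enters these cells from the tubular fluid by endocytosis through the receptors megalin and cubilin and collects in their lysosomes. This uptake is why the proximal tubule is the best known site of aminoglycoside injury in the kidney.

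The deposited tables list 28420 transcripts by Ensembl identifier, with an estimated count and a TPM value (a level adjusted for transcript length and library total) in each library. Totals in the 24 h controls were 8513263, 9467749 and 9515599 estimated counts, and in the gentamicin libraries 11156296, 9903945 and 10265268, so the gentamicin libraries were the deeper ones (exact permutation test, two-sided p = 0.1, the smallest that 3 against 3 allows). The files do not pair identifiers with gene names, and the reference tables used here paired 0 of them. Gene roles, gene lists, sequences and the markers of the labelled cell type were therefore not checked here, and the response is described over transcripts grouped by size, abundance and length, with 4 of them named by identifier. Within a group, the median SD of log2 CPM (counts scaled to library size) over 14009 transcripts was 0.153 in control and 0.157 with gentamicin, so the spread was close in both.

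After 24 h of gentamicin, more transcripts differed from control than did not pass the test. Of 15990 tested transcripts, 9525 (59.6%) differed from control at an adjusted p under 0.05 in edgeR's quasi-likelihood test with Benjamini-Hochberg adjustment. Of these, 4646 rose (29.1% of those tested) and 4879 fell (30.5%), a share of rises among the calls of 48.8%. The even split depended on the scale. With library totals in place of TMM factors, which scale libraries to the bulk of their transcripts, 3514 rose and 6482 fell, and with limma on log2(TPM + 1) 3831 rose and 5815 fell. The TMM factors were 1.02, 1.01 and 1.01 in control and 0.871, 0.868 and 0.852 with gentamicin. Library totals moved the median log2 change of all tested transcripts by -0.23 and limma moved it by -0.10, whereas DESeq2 gave 4896 rises and 4597 falls. In a bulk culture, fewer cells of a kind and less RNA per cell cannot be told apart.

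The largest changes were mostly rises. The median change was 0.94 on the log2 scale among rises and -0.89 among falls, against a median SE of 0.159 over all tested transcripts. Over 2-fold, 2189 transcripts rose and 2068 fell, together 44.7% of the calls. Over 4-fold, 930 rose (5.82% of those tested) and 418 fell (2.61%). Over 16-fold the counts were 216 and 22. The rises over 16-fold had a median of 0.269 TPM in control, and the falls over 16-fold one of 0.0555 TPM with gentamicin. The low-count filter ran over all 29 libraries, so a transcript could be tested through the group where it was high. These counts describe size and test nothing. Where a group had no count, its fold was taken as a lower bound with that group set at 3 counts in each library, which applied to 288 tested transcripts without a count in control and 223 without one in gentamicin. Rises over 4-fold outnumbered falls under library totals, 784 to 601, and under limma, 550 to 191.

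**Figure D1:**
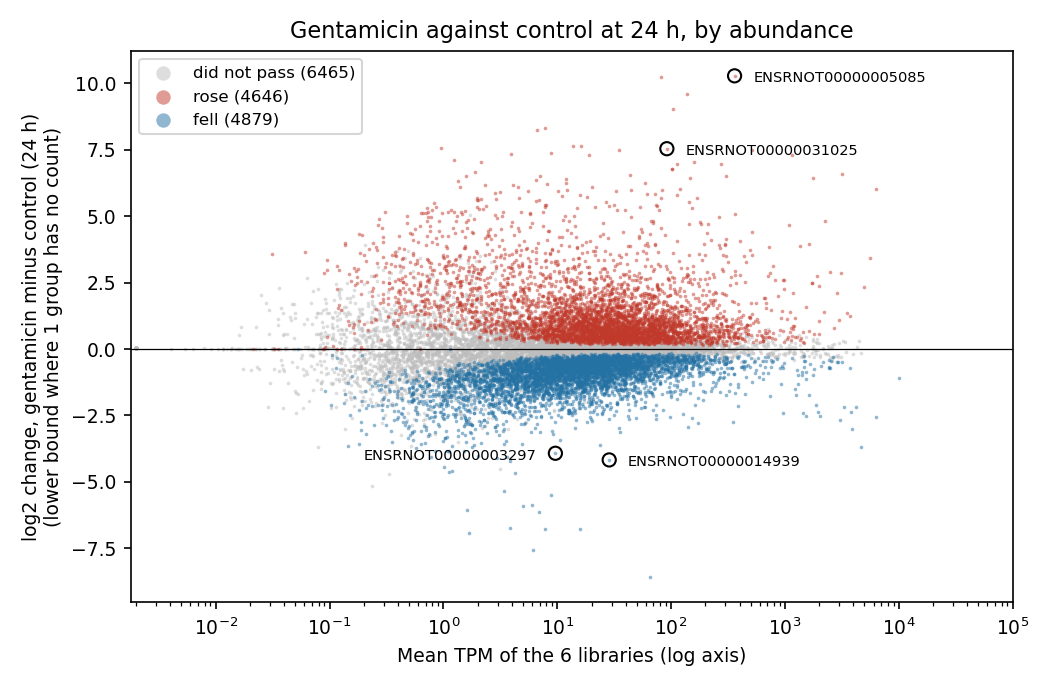
Change with gentamicin at 24 h against abundance, for each of 15990 tested transcripts. The x axis is the mean TPM of the 6 libraries on a log axis, with transcripts below its left edge drawn at the edge; the y axis is the log2 change, as a lower bound where 1 group had no count. Colours mark the 4646 transcripts that rose, the 4879 that fell and the rest, and circles mark the 4 named transcripts. The highest points lie farther from 0 than the lowest points.

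The groups were well separated in single libraries. In 4951 transcripts all 3 gentamicin libraries lay above all 3 controls in scaled CPM, and in 5247 all 3 lay below, together 63.8% of those tested. Of the 9525 calls, 9139 (95.9%) had no overlap between the groups, and 386 had some. Library sets also differed in a measure of fragment length, the bases between a transcript's length and its effective length. It was 288.8, 276.8 and 269.9 bases in control and 261.5, 264.5 and 259.2 with gentamicin (exact permutation test, two-sided p = 0.1). With this length as a covariate 9427 transcripts were called, and 8640 of the 9525 were among them.

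The transcript pool differed in composition. The share of TPM that would have to move between transcripts to turn 1 library into another was 25.8% to 27.9% over the 9 pairs of a gentamicin and a control library. It was 5.09% to 9.95% between controls and 4.04% to 8.68% between gentamicin libraries, so no pair within a group came near the pairs across groups. At 6 h, with other control libraries, the same share was 8.5% to 10.8% between gentamicin and control, 4.43% to 7.75% between gentamicin libraries and 3.09% between the controls. Of the 10 most abundant transcripts of the 24 h controls, 1 was also among the 10 most abundant with gentamicin. Of the 100 most abundant 65 were shared, and of the 1000 most abundant 768. The shared numbers at 6 h were 7, 90 and 927.

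A few transcripts made up a large part of the gains. The 10 with the largest gain in TPM held 0.627% ± 0.0285 (SD, n = 3) of control TPM and 6.2% ± 0.0698 (SD, n = 3) of gentamicin TPM, which made up 21.5% of all gains. These transcripts were picked by that gain, so the values describe it and test nothing. The foremost, 806 bases long, stood at 184.5, 217.5 and 238.4 TPM in control and at 13236.8, 12761 and 11220.3 TPM with gentamicin. Its gentamicin libraries lay far above every control, with a log2 change of 6.03 ± 0.199 (SE) and an edgeR adjusted p of 1.2e-17. A transcript of 703 bases went from 1072.3, 1110.3 and 1077.0 TPM to 10760.7, 10420.5 and 9401.8 TPM, a log2 change of 3.42 ± 0.112 (SE). A transcript of 625 bases went from 1406.8, 1843.8 and 2159.7 TPM to 8235.7, 7813.1 and 8095.2 TPM, a log2 change of 2.35 ± 0.18 (SE). All 3 were abundant with gentamicin in each library, and none overlapped its controls.

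The losses were as concentrated, and were likewise picked by size. The 10 with the largest loss in TPM held 7.23% ± 1.17 (SD, n = 3) of control TPM and 1.43% ± 0.103 (SD, n = 3) of gentamicin TPM, or 22.4% of all losses. The foremost, of 784 bases, stood at 13011.3, 11485.6 and 8623.9 TPM in control and at 1694.9, 1790.7 and 1420.1 TPM with gentamicin, a log2 change of -2.57 ± 0.114 (SE). The next, of 1545 bases, went from 14170.1, 16045.7 and 12554.6 TPM to 6327.1, 6019.3 and 5524.8 TPM, a log2 change of -1.11 ± 0.114 (SE). A short transcript of 348 bases varied widely within the controls, at 13319.9, 8357.8 and 4425.3 TPM, and stood at 505.0, 583.1 and 576.3 TPM with gentamicin. Its log2 change was -3.69 ± 0.35 (SE), and its lowest control still lay above every gentamicin library.

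Transcripts most abundant in control cells held a smaller share of the pool with gentamicin. The 10 most abundant transcripts of the 6 h controls, libraries that do not enter the 24 h comparison, held 6.52%, 6.61% and 6.69% of TPM in the 24 h controls and 3.07%, 2.83% and 3.28% with gentamicin (exact permutation test, two-sided p = 0.1). Of these 10, 5 fell and 0 rose, with log2 changes from -3.02 to 0.31, and 3 of the falls were over 4-fold. The 100 most abundant of the 6 h controls held 29.1%, 28.6% and 30.4% in control and 19.6%, 18.5% and 21.7% with gentamicin (exact permutation test, two-sided p = 0.1). Among them 34 fell, 11 of them over 4-fold, and 9 rose, 1 of them over 4-fold, with a median log2 change of -0.19. Over all tested transcripts 30.5% fell, 2.61% over 4-fold, 29.1% rose, 5.82% over 4-fold, and the median was -0.05, so the share of the 100 that fell was near that of all and the share that rose was lower. When each library was ranked by its own levels, its 10 most abundant transcripts held 8.51%, 7.73% and 6.85% of TPM in control and 6.91%, 6.8% and 6.59% with gentamicin, and the groups overlapped (exact permutation test, two-sided p = 0.2). Its 100 most abundant held 30.4%, 29.4% and 30.8% in control and 26.6%, 25.8% and 28.5% with gentamicin, a difference of -3.23 percentage points without overlap (exact permutation test, two-sided p = 0.1). As shares of estimated counts instead of TPM, that difference was 0.802 points. The 1000 most abundant differed by -0.627 points (exact permutation test, two-sided p = 0.7), which became 0.202 without gentamicin replicate 2 and -1.85 without gentamicin replicate 3.

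The number of transcripts detected at 1 TPM or more was 14200, 14125 and 14018 in control and 14146, 14137 and 13797 with gentamicin, with overlapping groups (exact permutation test, two-sided p = 0.7). The difference of the means, -87.7, became 27.2 without gentamicin replicate 3. With gentamicin, fewer transcripts lay at 5 TPM or more and more at 100 TPM or more. Transcripts at 5 TPM or more numbered 11299, 11335 and 11078 in control and 10843, 10924 and 10420 with gentamicin. Transcripts at 100 TPM or more numbered 1576, 1595 and 1551 in control and 1753, 1799 and 1656 with gentamicin. Neither of these overlapped between groups (exact permutation test, two-sided p = 0.1 for each).

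Direction varied with abundance. In classes by the mean TPM of the 6 libraries, 25.3% of 1981 transcripts under 1 TPM were called, 57.7% of 4785 at 1 to 10 TPM, 68.9% of 7554 at 10 to 100 TPM, 64.5% of 1505 at 100 to 1000 TPM and 54.5% of 165 over 1000 TPM. The median SE of the log2 change was 0.754 in the lowest class, 0.255 at 1 to 10 TPM and between 0.114 and 0.146 in the higher classes, so low transcripts needed larger changes to be called. At 1 to 10 TPM falls outnumbered rises, 1792 to 969. At 100 to 1000 TPM rises outnumbered falls, 633 to 338. The class of 100 to 1000 TPM held 35% ± 0.226 (SD, n = 3) of control TPM and 38.4% ± 0.179 (SD, n = 3) of gentamicin TPM. Rises made up 35.1% of calls at 1 to 10 TPM and 65.2% at 100 to 1000 TPM, and these shares were 25.6% and 46.9% with library totals and 29.5% and 51.5% with limma on log2(TPM + 1). Rises were thus the smaller share at 1 to 10 TPM under each of these scales, and the majority at 100 to 1000 TPM under TMM and limma but not under library totals.

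Changes over 4-fold were found in every abundance class. Of the 930 rises over 4-fold, 157 lay under 1 TPM, 335 at 1 to 10 TPM, 311 at 10 to 100 TPM, 109 at 100 to 1000 TPM and 18 over 1000 TPM. Of the 418 falls over 4-fold, 90 lay under 1 TPM, 220 at 1 to 10 TPM, 88 at 10 to 100 TPM, 8 at 100 to 1000 TPM and 12 over 1000 TPM. The median rise of 4 to 16-fold went from 2.32 TPM in control to 14.9 TPM with gentamicin, and the median rise over 16-fold from 0.269 to 13.5 TPM. Falls of 4 to 16-fold went from a median of 5.08 to 0.838 TPM.

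Because the mean over both groups moves a rising transcript up a class and a falling one down, the classes were also set by the 6 h controls, which do not enter the comparison. Under 1 TPM in those controls, 594 of 2529 transcripts rose and 272 fell, with 403 rises and 108 falls over 4-fold. Of 4811 at 1 to 10 TPM 1191 rose and 1673 fell. Of 7082 at 10 to 100 TPM 2395 rose and 2501 fell. Of 1399 at 100 to 1000 TPM 441 rose and 381 fell. The order turned in both middle classes under other settings. At 10 to 100 TPM 2547 rose and 2342 fell with median-of-ratios factors and 2585 and 2377 with DESeq2. At 100 to 1000 TPM 408 rose and 471 fell with fragment length as a covariate, 296 and 607 with library totals and 347 and 564 with limma. Of 169 over 1000 TPM 25 rose and 52 fell. Over all tested transcripts 29.1% rose and 30.5% fell. The share of this highest class that fell was therefore near that of all, and the share that rose was lower. The class over 1000 TPM held 37.7% ± 1.04 (SD, n = 3) of control TPM and 28% ± 1.81 (SD, n = 3) of gentamicin TPM. With classes set in the 6 h controls, rises outnumbered falls in the lowest class, under library totals and limma as well. Falls outnumbered rises in the highest class under the same settings. The low-count filter ran over all 29 libraries, so a transcript with few counts in the 6 h controls was tested only if other libraries held more. Such a transcript also had little room to fall. The lowest class therefore favoured rises in advance, and its counts test nothing.

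**Figure D2:**
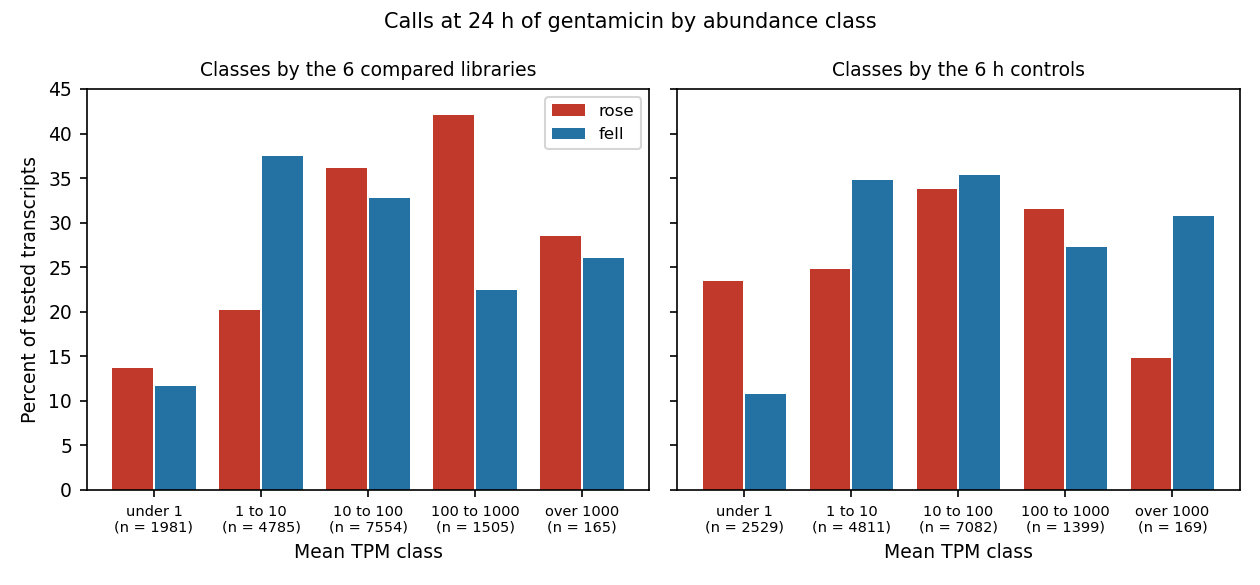
Percent of tested transcripts that rose or fell at 24 h of gentamicin in each abundance class. The left panel sets the classes by the mean TPM of the 6 compared libraries and the right panel by the 6 h controls; n is the number of tested transcripts. Falls exceed rises at 1 to 10 TPM in both panels, while the classes under 1 TPM and over 1000 TPM differ between the panels.

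Length made little difference to direction. Rises were 49% of calls under 500 bases, 49.7% at 500 to 1000 bases, 49.1% at 1000 to 2000 bases, 48.8% at 2000 to 4000 bases and 47.2% over 4000 bases. With the fragment length measure as a covariate, these shares were 39.1%, 41.4%, 46.7%, 50.7% and 52.5%, so short transcripts then had more falls. The share of rises by abundance was also taken within lengths. Among transcripts of 1000 to 2000 bases, rises were 36.6% of calls at 1 to 10 TPM and 66.1% at 100 to 1000 TPM, and among those of 2000 to 4000 bases 33.2% and 70.8%. The shares were 44.3% and 63.3% at 500 to 1000 bases and 30.6% and 61.2% over 4000 bases, whereas under 500 bases they were close, at 47.6% and 48.1%. These classes used the mean TPM of the 6 compared libraries, which moves rises up a class and falls down, so the shares test nothing. By the 6 h controls, over all lengths, the shares were 41.6% and 53.6%, and 31.4% and 32.8% with library totals. Transcripts whose estimated counts were whole in all 6 libraries, with no reads divided between transcripts, numbered 9967, of which 65.3% were called, against 50% of the 6023 others.

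Some transcripts were counted with gentamicin and not in its controls. There were 58 with an estimated count of 0 in each 24 h control and at least 10 in each gentamicin library, and 10 with the reverse. Their levels with gentamicin ran from 0.179 to 550.5 TPM with a median of 3.22 TPM, and 12 of them reached 10 TPM. At the floor of 3 counts in each control library, their rises were at least 4.2-fold to at least 525.1-fold. Most came from few reads, with a median mean count of 28.3. The zeros were those of the deposited tables, and the numbers moved with the minimum count.

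The most abundant of the 58, a transcript of 300 bases, was at 0 in all 3 controls and had 367, 348 and 372 counts with gentamicin, or 528.8, 589.0 and 533.7 TPM, at least 124.2-fold higher. Its mean was 7.94 TPM with gentamicin at 6 h and 7.08 TPM with acetaminophen at 24 h, so it was not unique to gentamicin. The next, of 1189 bases, stood at 217.3, 170.6 and 232.1 TPM with gentamicin, at least 525.1-fold higher, and at a mean of 1.2 TPM with gentamicin at 6 h. The one after, of 312 bases, stood at 51.5, 49.9 and 56.7 TPM with gentamicin, at least 13-fold higher, and at 38.3 TPM with TCDD at 24 h. The last shows a zero of 1 control group beside counts elsewhere, since the 6 h controls held 1 and 5 counts of it.

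Over the 23 libraries that did not choose them, the 58 were mostly low. At 6 h, 52 had a count in the 3 gentamicin libraries and 21 in the 2 control libraries, which gave fewer chances of a count. The gentamicin mean was the higher in 52 and the lower in 0. Of the 58, 6 were called as rises at 6 h, so for most of them the 6 h difference did not pass the test. A separate set of 3770 rises at 24 h, described further below, held 934 that were called as rises at 6 h. That set left out transcripts without counts in control, and with them the 58. Whether the 58 were called more or less often at 6 h than other transcripts was not tested. In a group other than gentamicin at 24 h, 17 of the 58 reached 1 TPM. At least 10 counts in every library were found for 3 of them with TCDD, 2 with acetaminophen and 1 with trichloroethylene at 24 h. The 10 transcripts counted in the 24 h controls and not with gentamicin at 24 h stood at 1.34 to 31.8 TPM in those controls. Of these, 1 had whole counts in all 6 libraries and 9 had counts with gentamicin at 6 h.

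**Figure D3:**
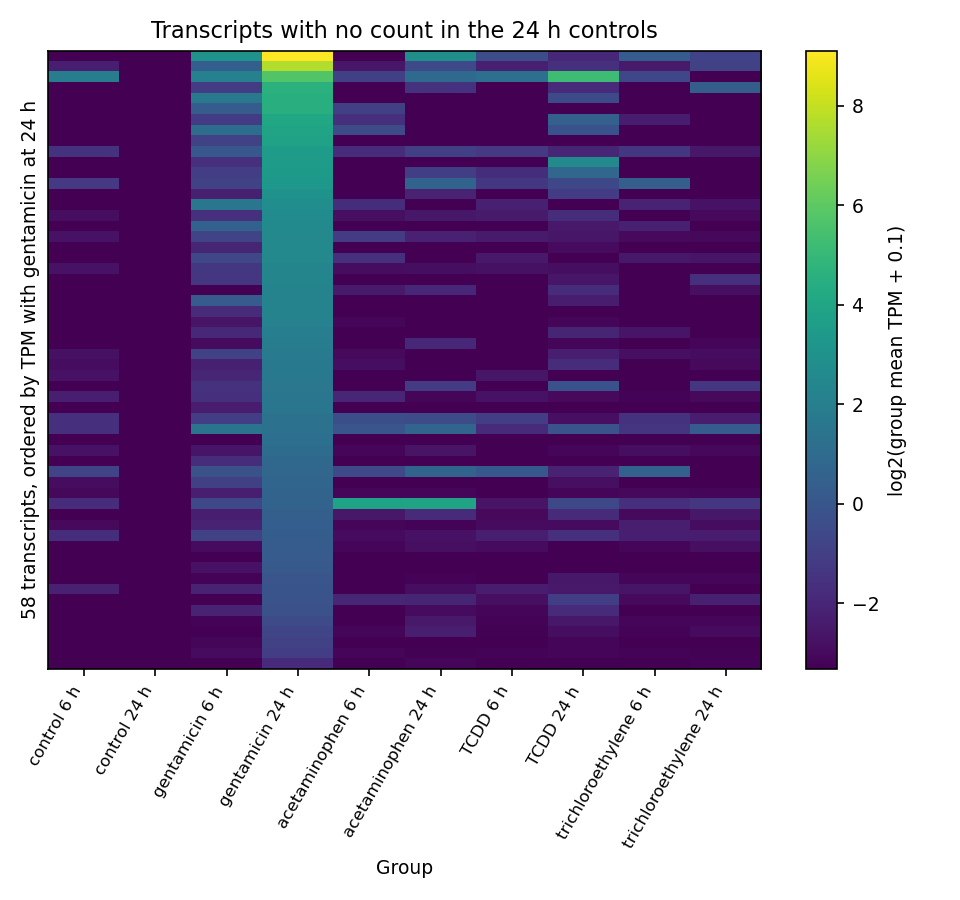
Levels of the 58 transcripts with no count in the 24 h controls and at least 10 in each gentamicin library. Rows are transcripts ordered by their level with gentamicin at 24 h, columns are the 10 groups, and colour is log2(group mean TPM + 0.1). The 24 h control column is empty and the 24 h gentamicin column full because of how the rows were chosen. The gentamicin 6 h column, from 3 libraries, holds a count for 52 rows. The 6 h control column, from 2 libraries, holds a count for 21.

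Single transcripts were named from those called with a mean of 5 TPM or more and no fewer than 3 counts in any of the 6 libraries. Of these the rise of ENSRNOT00000005085 (1894 bases) was the largest. Its levels were 1.09, 0.33 and 0.534 TPM in control and 650.6, 760.6 and 753.7 TPM with gentamicin. It went from barely detected, with 12, 4 and 7 counts, to 8848, 8892 and 10301 counts. The log2 change was 10.27 ± 0.429 (SE), or 1238-fold, with an edgeR adjusted p of 5.4e-15. At 6 h it was already 6.81 ± 0.453 (SE) higher than control on the log2 scale (edgeR adjusted p = 9.6e-10), at a mean of 151.2 TPM. Its mean at 24 h was 108.4 TPM with acetaminophen, 24.2 TPM with TCDD and 11.9 TPM with trichloroethylene, and gentamicin exceeded them by 3.05, 4.67 and 6.10 on the log2 scale (edgeR adjusted p = 7.0e-10, 2.5e-12 and 1.9e-13).

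ENSRNOT00000031025 (2036 bases) followed. Its levels were 0.84, 1.75 and 0.708 TPM in control and 167.0, 160.6 and 220.4 TPM with gentamicin, without overlap. The log2 change was 7.53 ± 0.419 (SE), or 185.4-fold, with an edgeR adjusted p of 7.2e-13. At 6 h the change was 2.53 ± 0.583 (SE) (edgeR adjusted p = 0.00528). Its means with acetaminophen, TCDD and trichloroethylene at 24 h were 6.04, 1.69 and 5.51 TPM, and gentamicin exceeded these by 5.25, 6.54 and 5.25 on the log2 scale (edgeR adjusted p = 6.3e-12, 1.2e-12 and 1.1e-11). Some of its reads were divided with other transcripts, as its counts were not all whole.

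The largest fall by the same rule, ENSRNOT00000014939 (5906 bases), rested on high 24 h controls. Its levels were 86, 41.2 and 36.3 TPM in control and 2.64, 2.83 and 2.71 TPM with gentamicin, a log2 change of -4.17 ± 0.857 (SE), or 18-fold, with an edgeR adjusted p of 2.8e-04. The 6 h controls, however, held only 0.742 and 0.0712 TPM, below every 24 h gentamicin library. The 24 h control stood above all other groups, whose single libraries reached at most 17.2 TPM. Gentamicin was not the lowest: against TCDD it was higher by 3.17 ± 1.27 (SE) on the log2 scale (edgeR adjusted p = 0.0332), and against acetaminophen and trichloroethylene the differences were 2.16 (edgeR adjusted p = 0.0831) and 1.43 (edgeR adjusted p = 0.223). Its counts were not whole, so reads were divided with other transcripts here too.

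ENSRNOT00000003297 (1400 bases) stood at 20.6, 17.7 and 16.2 TPM in control and at 1.37, 1.1 and 0.734 TPM with gentamicin, from 157, 149 and 148 counts to 13, 9 and 7. The log2 change was -3.92 ± 0.322 (SE), or 15.2-fold, with an edgeR adjusted p of 1.2e-10. All 3 gentamicin libraries also lay below the 6 h controls, at 5.59 and 5.17 TPM. At 6 h its change was -0.53 (edgeR adjusted p = 0.307). Against trichloroethylene at 24 h the difference was -3.30 on the log2 scale (edgeR adjusted p = 2.5e-09), while the differences from acetaminophen, -0.64 ± 0.358 (SE), and TCDD, -0.27 ± 0.381 (SE), did not pass (edgeR adjusted p = 0.118 and 0.553).

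**Figure D4:**
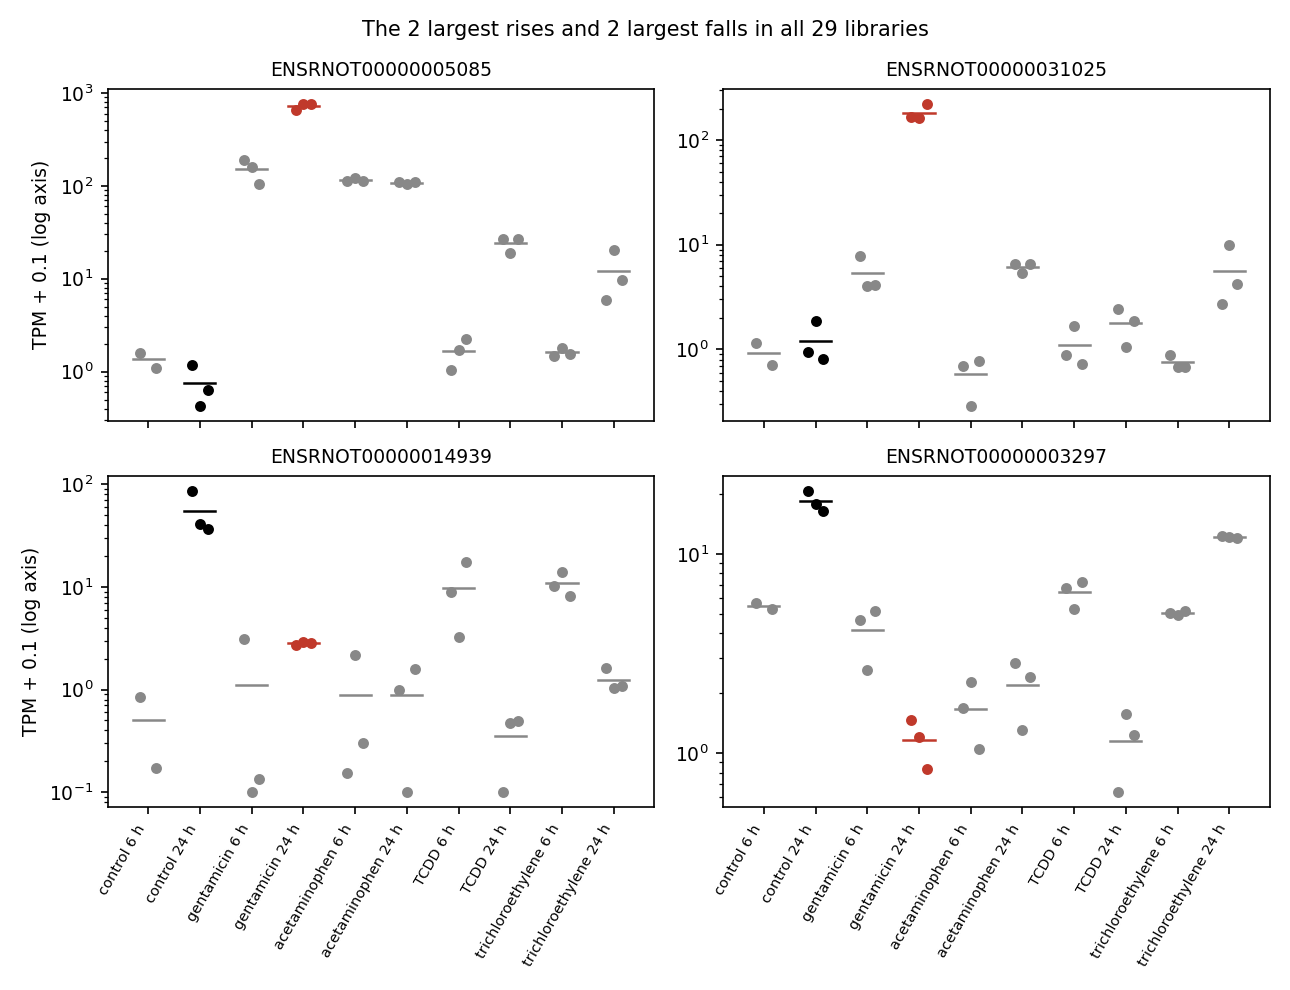
TPM of the 4 named transcripts in all 29 libraries, as TPM + 0.1 on a log axis. Points are libraries and lines group means, with gentamicin at 24 h in red and its control in black. Both rising transcripts are at their highest with gentamicin at 24 h; ENSRNOT00000014939 is highest in the 24 h control, at 36.3 to 86 TPM, and ENSRNOT00000003297 lies with gentamicin in the range of TCDD at 24 h.

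Broader sets drawn by the same rule, of size 50, were described at 6 h and with the other compounds. The rule left 7431 transcripts, 3770 rises and 3661 falls. The 50 largest rises, from 4.70 to 10.27 on the log2 scale, went from a median of 3.16 TPM in control to 154.9 TPM with gentamicin. All 50 were higher with gentamicin at 6 h too, with a median log2 change of 2.56, and 46 of them were called there. Over all 3770 rises, 2835 were higher at 6 h, 934 were called there and the median was 0.18. At 24 h the medians of the 50 were 12.7 TPM with acetaminophen, 15.9 TPM with TCDD and 9.68 TPM with trichloroethylene. Over all 3770 rises they were 31.4, 22.4 and 27.6 TPM, beside 23.9 TPM in the 24 h controls. Those controls helped to choose both sets, and whether the other compounds raised the same transcripts was not tested.

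The 50 largest falls, from -4.17 to -2.41 on the log2 scale, went from a median of 37.2 TPM in control to 4.45 TPM with gentamicin. The 50 were picked by a change that the 24 h controls enter, and their median in the 6 h controls was only 16.8 TPM. At 6 h, 42 were lower with gentamicin and 8 higher, 22 of them were called as falls, and the median log2 change was -0.52. Over all 3661 falls, 2596 were lower at 6 h, 535 were called there and the median was -0.14. Their median level was 26.3 TPM in the 24 h controls and 22.3 TPM in the 6 h controls. All 3 gentamicin 24 h libraries lay below both 6 h controls in 48 of the 50, and in 3014 of the 3661. These falls were called through the same gentamicin libraries, so both counts are descriptive only. At 24 h the medians of the 50 with the other compounds were 10.3 TPM with acetaminophen, 6.75 TPM with TCDD and 21.3 TPM with trichloroethylene. Over all 3661 falls they were 25.2, 15.6 and 25.1 TPM, beside 26.3 TPM in the 24 h controls. Those controls helped to choose both sets, and whether the other compounds lowered the same transcripts was not tested.

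The 24 h effect was set against the 6 h effect, which has control libraries of its own. The median size of the log2 change was 0.63 at 24 h and 0.24 at 6 h, with median SEs of 0.159 and 0.174. In an interaction contrast, 6266 transcripts (39.2% of those tested) had a different effect at the 2 times in edgeR's test, 2997 with a more positive and 3269 with a more negative effect at 24 h. Of the 4646 rises, 2836 (61%) passed this test with a more positive effect at 24 h than at 6 h, and of the 4879 falls, 3037 (62.2%) passed it with a more negative one. These shares use the same 24 h libraries as the calls themselves.

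Classes of larger rises at 24 h had larger median changes at 6 h. The median 6 h log2 change was 0.10 for rises under 2-fold at 24 h, 0.29 for rises of 2 to 4-fold, 0.63 for rises of 4 to 16-fold and 1.98 for rises over 16-fold, beside 0.01 over all tested transcripts. The share with the same sign at 6 h went from 67.1% to 89.8% over these classes. Among falls the 6 h medians were smaller, at -0.09, -0.21, -0.36 and -0.50, and the share with the same sign was 65.3%, 71.8%, 73.2% and 59.1%. The last class held 22 transcripts. Against both 6 h controls, all 3 gentamicin 24 h libraries were higher for 904 of the 930 rises over 4-fold (97.2%) and lower for 340 of the 418 falls over 4-fold (81.3%). The same held for 77% of rises and 74.6% of falls under 2-fold. All these transcripts were called through the same gentamicin libraries, so the shares describe them and test nothing.

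**Figure D5:**
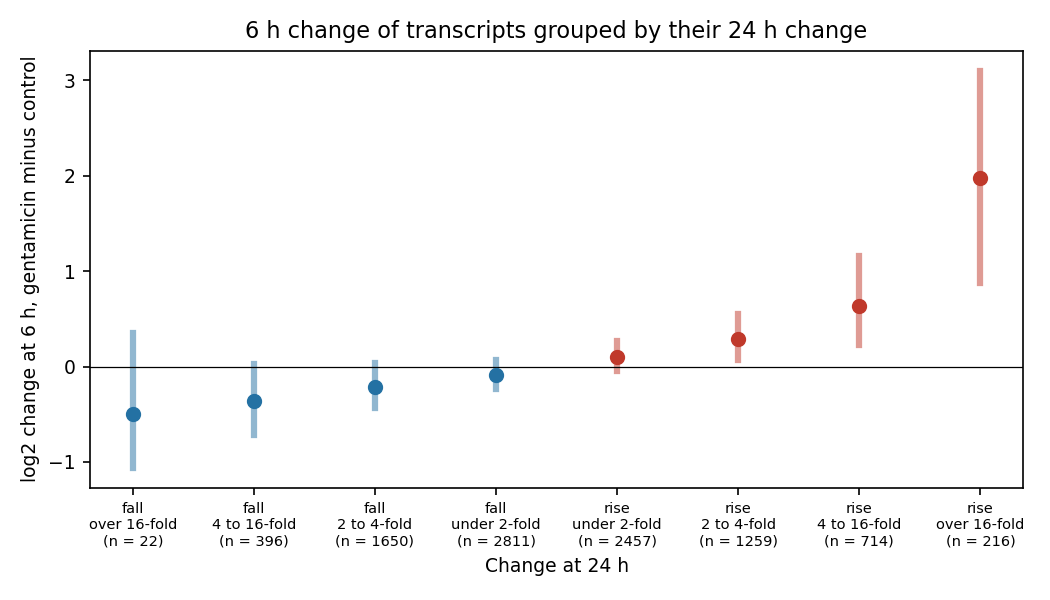
The 6 h change of transcripts grouped by their called change at 24 h. Points are medians of the log2 change at 6 h, bars run from the 25th to the 75th percentile over transcripts, and n is the number of transcripts. Medians go from 0.10 to 1.98 over the classes of rises and from -0.09 to -0.50 over the classes of falls.

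Direct contrasts between compounds at 24 h use no control library. Gentamicin differed from acetaminophen in 10709 transcripts (67% of those tested), 5412 higher and 5297 lower with gentamicin in edgeR's test. It differed from TCDD in 10903 (68.2%), 5526 higher and 5377 lower. It differed from trichloroethylene in 9869 (61.7%), 4834 higher and 5035 lower. Over 4-fold, gentamicin was higher in 1073 and lower in 978 transcripts against acetaminophen, higher in 1083 and lower in 829 against TCDD, and higher in 786 and lower in 535 against trichloroethylene. The median size of the difference was 0.78, 0.83 and 0.67 on the log2 scale, in each case above the 0.63 found against control.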

How the data were processed

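RNA of 29 libraries was sequenced, and the 6 of gentamicin and control at 24 h were compared. Per the submitters' processing notes, the counts come from kallisto 0.43, a pseudoaligner. Per the file headers, the deposited tables give estimated counts, which need not be whole (20.1% of values were not), and TPM, the authors' scaling of those counts by effective length and library total. The transcript set, genome build, strand setting and trimming were not given in the sources used here. As kallisto divides reads that several transcripts share, some changes can be shifts between related transcripts.

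Estimated counts were rounded. filterByExpr (minimum count 10) kept 15990 of 28420 transcripts and 99.9% of counts. Libraries held 8243698 to 11446612 counts. edgeR 4.0.16 in R 4.3.3 fitted 1 quasi-likelihood model with TMM factors, robust dispersion and a coefficient for each of 10 groups, with 19 residual degrees of freedom. Each comparison was a contrast, with Benjamini-Hochberg adjustment over all tested transcripts and a threshold of 0.05. The SE was the absolute log2 change over the root of F. Single values per library were compared by exact permutation (scipy 1.17.1). The steps were tested on simulated counts. Within the 24 h control and 24 h gentamicin groups no 2 replicates were duplicates, with a chi-square between 3.08 and 11.1 per degree of freedom.

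Named transcripts were called, had at least 3 counts in each of the 6 libraries and a mean of at least 5 TPM; the 2 largest rises and 2 largest falls were taken. The rule, members and lists were chosen with earlier results of these data known. The sets of 50, the size classes at 6 h, the moved share of TPM and the 6 largest moves were added after values were seen. Gene lists and markers were not used here, since no identifier was paired with a name. The labels give no batch or date.

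Alternatives were DESeq2 1.42.0 (whose dispersion trend was a local fit), median-of-ratios factors, library totals, other filters, a replicate block, only the 6 libraries, no robust dispersion, effective length as an offset, fragment length as a covariate, limma 3.58.1 on log2(TPM + 1) and log2(TPM + 0.1), only whole counts, other limits for absence, and leaving out each library. Chosen after seeing the data were rounding before absence was called, library totals and limma for the class counts, and leaving out libraries of 6 h or of other compounds.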

Additional observations from a re-analysis of the deposited data

Results flagged for a closer look

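The effects of gentamicin at 24 h and at 6 h differed by the interaction contrast in 6266 transcripts, and the difference was itself tested (edgeR adjusted p under 0.05). All 4 named transcripts were among them. The 24 h effect minus the 6 h effect on the log2 scale was 3.46 ± 0.858 (SE) for ENSRNOT00000005085 (edgeR adjusted p = 0.00267) and 5.01 ± 0.97 (SE) for ENSRNOT00000031025 (edgeR adjusted p = 2.7e-04), so both were raised further at 24 h than at 6 h. It was -3.39 ± 0.457 (SE) for ENSRNOT00000003297 (edgeR adjusted p = 2.1e-06). It was -5.34 ± 1.71 (SE) for ENSRNOT00000014939 (edgeR adjusted p = 0.0176), whose controls held 36.3 to 86 TPM at 24 h and 0.0712 to 0.742 TPM at 6 h, so the controls of the 2 times did not overlap either. These 4 were named for the size of their 24 h change, which enters the contrast.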

How the results depend on the processing

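The 31 results were recomputed in 353 alternatives. No called result changed direction, 327 stayed on their side of the threshold, within 1.5 times their count or within 1 SD, 14 gave over 1.5 times more calls, 8 as many fewer and 4 moved by more than the spread. The count of 9525 ran from 8873 to 9053 with 1 library left out and from 6661 (only whole counts) to 9996 (library totals) otherwise. Rises over 4-fold were 550 and falls over 4-fold 191 with limma on log2(TPM + 1), whose pseudocount shrinks changes of low transcripts. With only whole counts, where fewer transcripts were tested, falls over 2-fold were 1344, rises over 4-fold 613 and falls over 4-fold 232. With classes by the 6 h controls, rises under 1 TPM were 594 and rises over 1000 TPM 25. Falls at 100 to 1000 TPM were 545 with library totals, and falls over 1000 TPM, 43 as first given, were 68 with fragment length as a covariate, 67 with library totals and 77 with limma; the cause was not tested.

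The 58 transcripts counted with gentamicin and not in the 24 h controls numbered 125 at a minimum of 5 counts. They numbered 31 at 20 and 95 when 1 count was allowed where absent. The 10 counted in the 24 h controls and not with gentamicin at 24 h were 17, 4 and 19 by the same changes. They were 17 when counts were rounded first. Leaving out 1 library gave 68 to 82 and 12 to 25. The latter count passed 1.5 times its value without control replicate 3 (16) and without gentamicin replicates 1 (25), 2 (19) or 3 (17). Fewer libraries then had to meet the rule. As shares of estimated counts, the 100 and 1000 most abundant differed by 0.802 and 2.06 points, against -3.23 and -0.627 of TPM. The difference of -87.7 in transcripts at 1 TPM was 162.3 at 0.5 TPM and -508.3 at 5 TPM. Leaving out 1 library gave -1.85 to 0.202 points for the 1000 most abundant and -147.3 to 27.2 transcripts at 1 TPM; 0.202 was without gentamicin replicate 2, and -1.85 and 27.2 without gentamicin replicate 3. The exact permutation test of 3 against 3 cannot go below 0.1, so no difference could pass 0.05. The TPM share of the 100 most abundant and the number at 5 TPM were at that minimum. Differences in shares of estimated counts, and those with 1 library left out, were not tested.

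Replicate numbers did not pair the libraries: same-numbered deviations from the group means correlated at -0.00822, 0.0379 and 0.094, and not every library correlated best with its own number. The replicate block gave 9446 calls, 9388 of them shared with the 9525, and ended no call of a named transcript. The 4 named transcripts kept their call and direction in each alternative run for them, 19 for ENSRNOT00000005085 and ENSRNOT00000003297 and 18 for the others, which have no value with only whole counts. At under 1 TPM a median SE of 0.754 limited what could be called.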
